A study of Mus musculus with 9 samples.

Results

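The chemokine genes described are 10 mouse genes that encode secreted or membrane-tethered ligands of the CC and CX3C classes, namely Ccl2, Ccl7, Ccl11, Ccl12, Ccl8, Ccl5, Ccl20, Ccl17, Ccl22 and Cx3cl1, among 37273 annotated genes. They were chosen by name and family, and a RelA or RelB binding site was given to a gene when its centre lay within 50 kb of the gene's mm9 start site, so that a site between neighbouring genes counted for each of them. By this rule 34 of the 15069 merged binding sites in the series belonged to the chemokine genes.

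The cells were Nfkb2-/- MEFs, immortalized mouse embryonic fibroblasts that lack p100, the precursor that yields p52 and also holds RelB in the cytoplasm. Chromatin was taken from untreated cells (0 h) and from cells exposed to 10 ng/ml TNF for 6 h, and was precipitated with anti-RelA (sc-372) or anti-RelB (sc-226). There were 2 libraries for each antibody and time point, 8 in all, and every one of them carries the Nfkb2-/- genotype, so that no wild-type chromatin was compared. Nothing in the labels says whether the 2 libraries of a group came from separate cultures, so the spread between them, and each p-value, may be technical. The 6 h libraries had 5192 to 7052 peaks with 120352 to 162105 ChIP reads inside peaks, and the 0 h libraries had 14 to 194 peaks. Total reads are unknown, so a gene without a peak is one where none was called at this depth. Peak lists hold no transcript levels, so neither the fibroblast identity of the cells nor the absence of p100 was checked here.

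Chemokines guide leukocytes along gradients by acting on G-protein-coupled receptors. Fibroblasts stimulated with TNF are a textbook source of Ccl2, and NF-κB dimers are known to drive the transcription of several chemokine genes by binding κB sequences near them. RelA pairs mainly with p50 in the canonical pathway. RelB pairs with p52 or p50, and without p52 only the p50 partner remains for it among these.

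Sequences of 6 sites are shown because the results turn on them, read 5′ to 3′ on the plus strand of mm9, 120 bases each. Capitals mark letters that match the 10-letter κB consensus on either strand, and overlapping matches form one run of capitals. Each stretch was placed on the densest κB matches of its site, or on the site centre where there were none, so that a match in it is no finding. The first is the site closest upstream of Ccl2 that every 6 h library held, chr11:81846650-81846769, and the next is the chemokine site with the highest mean fold, 16011 bp upstream of Ccl2, chr11:81832958-81833077. The third lies at the Ccl5 start site, chr11:83344030-83344149, and the gene reads on the minus strand. The fourth is in an intron of Cx3cl1, chr8:97303171-97303290, and the fifth is the site upstream of Ccl17 where RelB exceeded RelA most, chr8:97331465-97331584. The last is the site upstream of Ccl20, chr1:83096436-83096555, the one chemokine site held by every 6 h library that has no κB match.
Ccl2 proximal site: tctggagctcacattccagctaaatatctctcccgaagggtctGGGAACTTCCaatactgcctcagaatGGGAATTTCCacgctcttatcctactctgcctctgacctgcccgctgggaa
Ccl2 distal site: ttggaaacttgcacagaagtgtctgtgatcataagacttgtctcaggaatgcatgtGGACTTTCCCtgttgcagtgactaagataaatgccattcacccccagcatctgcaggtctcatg
Ccl5 start site: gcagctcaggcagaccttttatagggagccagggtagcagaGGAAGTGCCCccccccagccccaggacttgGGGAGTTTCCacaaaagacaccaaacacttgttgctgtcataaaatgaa
Cx3cl1 intron: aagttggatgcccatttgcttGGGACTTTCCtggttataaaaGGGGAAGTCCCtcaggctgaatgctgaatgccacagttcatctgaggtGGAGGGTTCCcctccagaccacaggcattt
Ccl17 upstream site: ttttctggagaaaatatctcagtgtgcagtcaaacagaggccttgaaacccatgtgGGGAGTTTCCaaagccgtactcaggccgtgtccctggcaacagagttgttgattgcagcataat
Ccl20 upstream site: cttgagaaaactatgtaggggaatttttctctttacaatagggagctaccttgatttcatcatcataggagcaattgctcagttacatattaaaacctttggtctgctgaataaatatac

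At 0 h none of the 4 libraries held a peak near any of the 10 chemokine genes, where 1.2% of all genes had one in at least 1 library. At 6 h, 8 of the 10 genes had a site, against a background of 39.6% of all genes with a 6 h peak in any library. The same 8 genes had at least 1 site called in all 4 libraries of that time point, where the background was 8.89% of all genes and 9.83% of protein-coding genes. Neighbouring members share sites, so the 8 genes stand for 4 loci and are not 8 separate observations. Of the 34 sites, 14 were called in all 4 libraries, 6 in 3, 2 in 2 and 12 in a single library. The RelA libraries held 23 and 23 peaks near the chemokine genes and the RelB libraries 22 and 28. Every 6 h library thus contributed a similar number, and 29 of the 34 sites (85.3%) were intergenic, against 48.1% of all 14779 sites with a 6 h peak. The 12 sites of a single library had log2 folds over input from 2.08 to 3.30 and 11 to 40 ChIP reads, while the 14 sites of all 4 libraries had 12 to 152 ChIP reads per library.

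The values given for each site are the log2 fold over input of its strongest window, as the peak caller reported it, and the ChIP reads inside the peak. Over the 14 sites called in all 4 libraries the mean log2 fold ran from 2.65 to 4.30 with a median of 3.36, and the median of all 1860 such sites in the genome was 3.19. Of the 14, 1 lay within 1 kb (7.14%) and 4 within 5 kb (28.6%) of a chemokine start site, which were also the numbers for the start site of any gene. Over all 1860 sites, 13.5% lay within 1 kb and 25.4% within 5 kb of the start site of any gene. Of the 14 sites, 12 were intergenic (85.7%), against 51.0% of the 1860, and 12 lay upstream of the chemokine start site nearest to them.

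The cluster on chromosome 11 holds the monocyte chemoattractants Ccl2 and Ccl7, the eosinophil attractant Ccl11, and Ccl12 and Ccl8. Ccl2 (ENSMUSG00000035385.5, plus strand, chr11:81849073-81850955) had 9 sites within 50 kb, 5 of them in all 4 libraries. Ccl7 had the same number of each, and Ccl11 had 8 and 4. Of 37273 genes, 9 (0.0241%) had 5 or more sites of all 4 libraries within 50 kb, and 17 genes had 4 or more. Both counts include the chemokine genes themselves, and neighbours that share sites each count. The 5 sites spanned 26786 bp, and each lay upstream of Ccl2.

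The site nearest to the Ccl2 start site among them, chr11:81845861-81847115, was centred 2585 bp upstream, in an intron of the gene model Gm17268. Its log2 fold was 4.36 and 4.51 in the RelA libraries against 3.50 and 3.40 in the RelB libraries, that is 20.5 and 22.9 times the input against 11.3 and 10.6 times. Both RelA libraries were above both RelB libraries. The fullest window held 59 and 66 reads in the RelA libraries against 28 and 36 in the RelB libraries, and the fullest input window held 10 reads in each list. In RelA replicate 2 this site was one peak of 1242 bp, whereas each of the other libraries called 2 peaks within it, and the reads given here as 139, 152, 73 and 84 are their sums. Its sequence holds 4 κB matches, of which GGGAACTTCC and GGGAATTTCC both stand in the sequence printed first. That stretch leaves out the site centre and the reported position of the strongest window in each library. The site also holds the AP-1 words TGAGTCA and TGATTCA, at chr11:81846594-81846600 and chr11:81846836-81846842, the first of them close to that position in 3 libraries (81846600, 81846608 and 81846616).
The site centred 16011 bp upstream of Ccl2, chr11:81832682-81833443, had the highest mean of all chemokine sites. Its log2 fold was 4.36 and 4.72 in the RelA libraries against 3.80 and 4.30 in the RelB libraries, and RelA replicate 1 and RelB replicate 2 nearly coincided. With a mean of 4.30 it stood at percentile 95.2 of the 1860 sites. It holds a single κB match, GGACTTTCCC.
The remaining 3 sites of all 4 libraries lay further out. At chr11:81820330-81820574, 28621 bp upstream of Ccl2, the log2 fold was 3.72 and 3.68 in the RelA libraries against 3.18 and 4.15 in the RelB libraries, so the RelB libraries fell on either side of the RelA libraries. At chr11:81825229-81825590, 23664 bp upstream, it was 3.31 and 3.34 in the RelA libraries against 3.66 and 3.29 in the RelB libraries. At chr11:81829685-81830296, 19083 bp upstream, it was 3.10 and 3.45 in the RelA libraries against 2.60 and 3.30 in the RelB libraries. The antibodies overlapped at each of these 3 sites.
Of the other 4 sites of the cluster, each from 1 library, the highest was chr11:81852529-81853012, between Ccl2 and Ccl7, with a log2 fold of 3.30 and 24 ChIP reads in RelB replicate 2. It was 3697 bp downstream of the Ccl2 start site and 6444 bp upstream of that of Ccl7. RelA replicate 2 had a separate peak close by, chr11:81852337-81852386, at 2.62 with 22 reads, and the peaks did not overlap. The third, chr11:81847268-81847296, had 2.39 in RelA replicate 2 with 13 reads.

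Ccl12 and Ccl8, further along the same cluster and known as ligands of monocytes and other leukocytes, had no peak within 50 kb at either time. The nearest 6 h peak to both was that of RelB replicate 2 between Ccl2 and Ccl7, at 62576.5 bp from the start site of Ccl12 and at 75916.5 bp from that of Ccl8. With a limit of 100 kb in place of 50 kb all 10 genes had a site in all 4 libraries, so the absence depends on the limit.

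**Figure D1:**
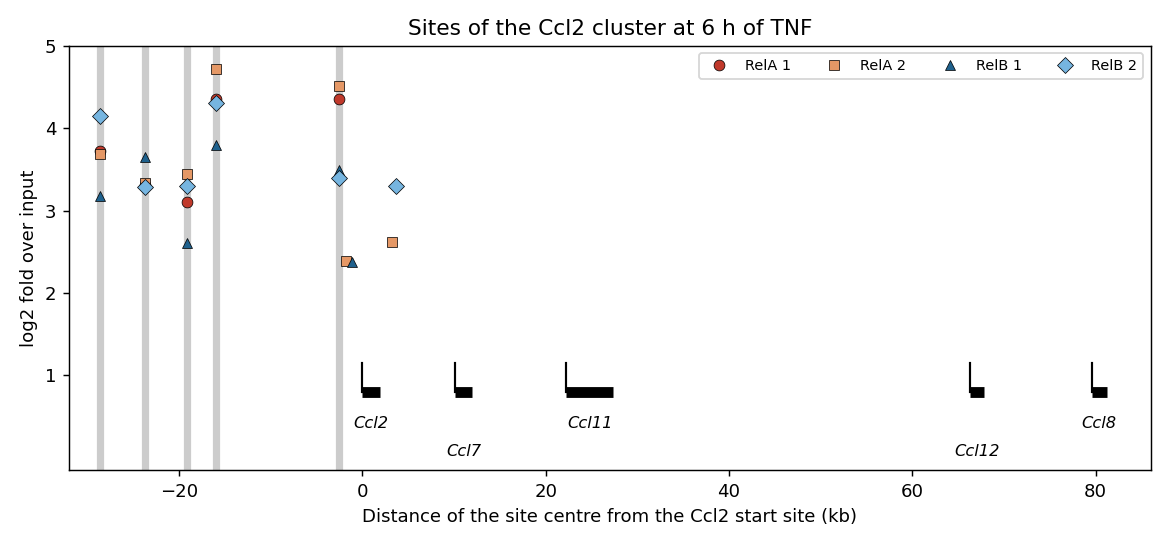
Sites near Ccl2, Ccl7, Ccl11, Ccl12 and Ccl8 at 6 h, by the distance of the site centre from the Ccl2 start site in kb (x axis) and the log2 fold over input (y axis), with 1 symbol per library. Grey bars mark the 5 sites of all 4 libraries, all upstream of Ccl2, and black bars the genes with a tick at the start site. No symbol lies near Ccl12 or Ccl8.

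Ccl5 (ENSMUSG00000035042.2, minus strand, chr11:83339280-83344020), a ligand that draws T cells and monocytes, had 11 sites, 3 of them in all 4 libraries. It was the one chemokine gene with such a site at its start. That site, chr11:83343945-83344198, was centred 51 bp upstream, with a log2 fold of 3.31 and 3.06 in the RelA libraries against 3.29 and 3.49 in the RelB libraries. It rested on 18, 12, 18 and 20 ChIP reads, the thinnest read support among the sites of all 4 libraries near Ccl5. In RelA replicate 2 it had an FDR of 0.0484 and 12 reads, the fewest in any library at the 14 such chemokine sites. Its κB matches GGGCACTTCC, on the minus strand, and GGGAGTTTCC lie in the sequence printed above, where both lie upstream of the start site.
A second site, chr11:83347996-83348691, was centred 4323 bp upstream, at 3.25 and 3.51 in the RelA libraries against 3.27 and 3.56 in the RelB libraries. The antibodies gave almost the same values there, with replicate 2 the higher in both. The site was also the 1 of 14 that held an interferon-response-like match, 2 GAAA repeats separated by any 2 bases, which 4.03% of the 1860 sites held within 100 bp of the centre. The third, chr11:83363659-83364363, was 19991 bp upstream, at 2.83 and 2.75 in the RelA libraries against 3.12 and 3.45 in the RelB libraries, with both RelB libraries above both RelA libraries.
Between them, chr11:83357527-83357760, 13623 bp upstream, was called in both RelA libraries at 3.44 and 3.44 with 53 and 61 reads. RelB replicate 2 called it at 2.56 with 25 reads, and RelB replicate 1 did not call it. At 47863 bp upstream, in an intron of Ccl9 next to that gene's start, chr11:83391800-83391967 had a log2 fold of 3.06 in RelA replicate 2 and 3.21 in RelB replicate 2. A separate peak of RelB replicate 1 at chr11:83392118-83392176, at 3.13 with 40 reads, spanned the Ccl9 start site, so these sites are nearer to Ccl9 than to Ccl5. The other 5 Ccl5 sites were peaks of 1 library.

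Ccl20 (ENSMUSG00000026166.8, plus strand, chr1:83113341-83115742), the ligand of Ccr6, had 5 sites and 1 of all 4 libraries. This site, chr1:83096275-83096718, was 16845 bp upstream, at 3.30 and 2.83 in the RelA libraries against 3.19 and 2.47 in the RelB libraries with 55, 43, 34 and 25 reads. Replicate 1 was the higher for both antibodies, and the ranges overlapped. The strongest value near Ccl20 came from the other side of the gene. The site chr1:83148120-83148440 lay 34939 bp downstream of the start site, nearest to the coding gene Wdr69. RelB had 4.0 and 3.40 there and RelA replicate 2 had 3.06, while RelA replicate 1 had no peak. The RelB peaks, chr1:83148329-83148440 and chr1:83148190-83148219, did not overlap each other and were joined by the RelA peak, chr1:83148120-83148347. A peak of RelB replicate 2 alone lay beside this site at chr1:83148609-83148637, at 2.98 with 12 reads. A pair of sites upstream were called in 3 libraries. At chr1:83082620-83083054, 30504 bp upstream, RelA replicate 2 had 3.36 and RelB 2.94 and 3.40. At chr1:83098573-83098746, 14682 bp upstream, RelA had 2.89 and 2.83 and RelB replicate 2 had 1.97. No site of any library lay within 14 kb of the Ccl20 start site.

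**Figure D2:**
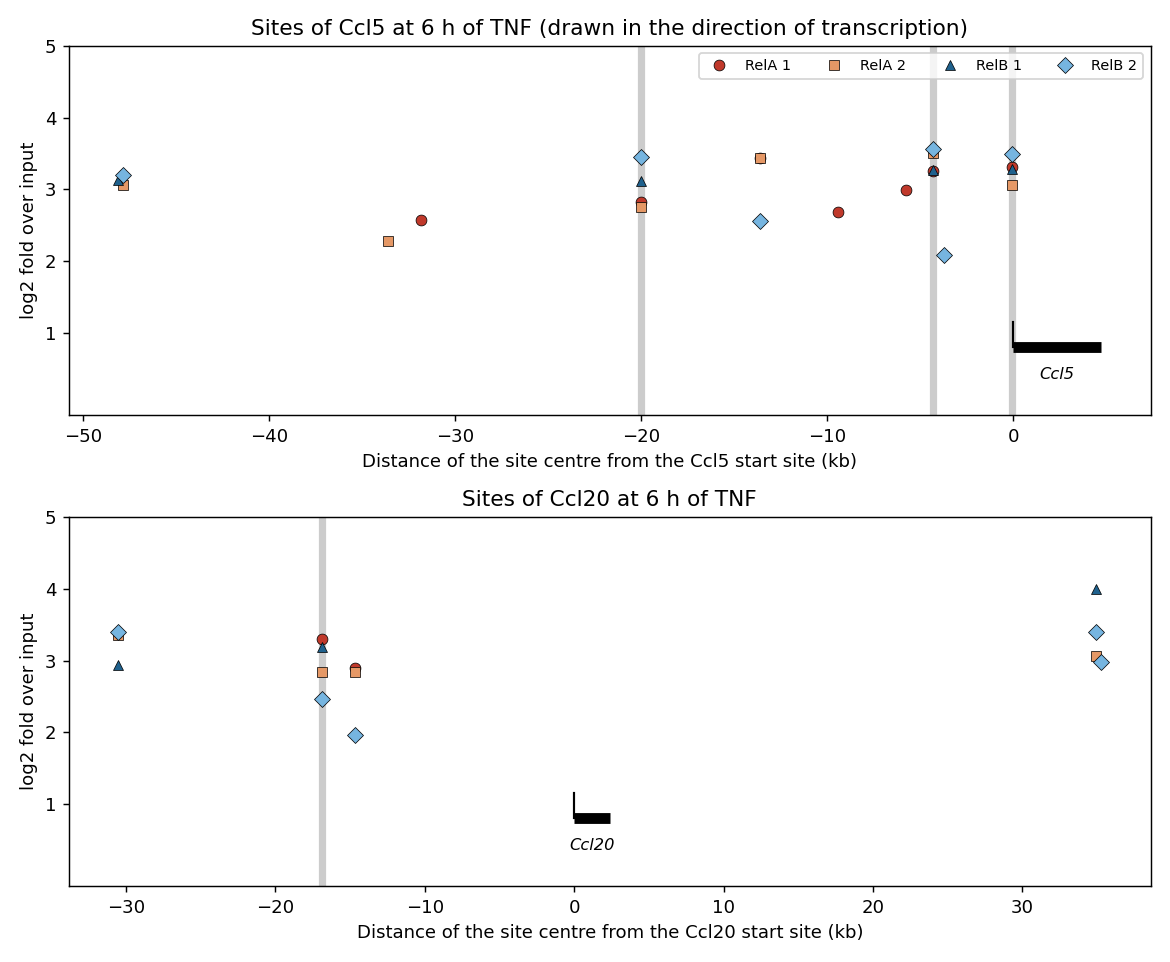
Sites near Ccl5 (upper panel, drawn in the direction of its transcription) and Ccl20 (lower panel) at 6 h, by the distance of the site centre from the start site in kb (x axis) and the log2 fold over input (y axis), with 1 symbol per library. Grey bars mark sites of all 4 libraries, 3 near Ccl5 with 1 at its start, and 1 near Ccl20.

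On chromosome 8 the genes Ccl22, Cx3cl1 and Ccl17 lie in a row. Ccl22 and Ccl17 are ligands of Ccr4, and Cx3cl1, or fractalkine, is the membrane-tethered ligand of Cx3cr1. Within 50 kb Ccl22 had 8 sites with 4 of all 4 libraries, and Cx3cl1 and Ccl17 had 5 sites with 3 of all 4 libraries each. At least 3 such sites were found for 77 of 37273 genes, or 0.207%, with Ccl22, Cx3cl1 and Ccl17 among them. The cluster's 9 sites together included 5 of all 4 libraries over 102122 bp.
The site of the cluster with the highest mean, chr8:97302936-97303669, was in an intron of Cx3cl1 (ENSMUSG00000031778.6, plus strand, chr8:97295909-97306323), 7393 bp downstream of its start site, and counted for all 3 genes. Its log2 fold was 4.21 and 3.82 in the RelA libraries against 4.19 and 4.22 in the RelB libraries, with 61, 40, 51 and 64 reads. RelA replicate 2 was the lowest, and RelA replicate 1 lay between the RelB libraries. With overlapping matches counted separately it held 6 κB match positions, 4 of which lie in the 3 runs of capitals printed above. Some of the 6 overlap, so the count does not set this site above the Ccl2 proximal site, which had 4 without overlap.
At chr8:97309024-97309804, 13505 bp downstream of the Cx3cl1 start site and beyond the gene's end, the log2 fold was 2.57 and 2.70 in the RelA libraries against 2.94 and 3.02 in the RelB libraries. Both RelB libraries were above both RelA libraries, on 40, 47, 44 and 53 reads. RelB replicate 1 had a single peak there. It joined separate peaks in each of the other libraries, whose reads are summed. The strongest window stood at 97309368 in RelA replicate 1 and 97309757 in RelA replicate 2, against 97309767 and 97309741 in the RelB libraries. The other peak of RelA replicate 1 had 2.56 at 97309719.

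The site upstream of Ccl17 (ENSMUSG00000031780.1, plus strand, chr8:97334353-97335935) differed most between the antibodies among the chemokine sites. It covered chr8:97331396-97331723 and was centred 2794 bp upstream of Ccl17. The log2 fold was 2.89 and 2.12 in the RelA libraries against 4.0 and 4.25 in the RelB libraries, or 7.41 and 4.34 times the input against 16 and 19.0 times. Both RelB libraries lay above both RelA libraries, and the RelA libraries were apart from each other by more than the RelB libraries. These folds are not from the same window. The strongest window stood at 97331621 and 97331566 in the RelA libraries against 97331714 and 97331723 in the RelB libraries. The fullest window held 18 and 13 reads in the RelA libraries against 19 and 25 in the RelB libraries. The peak held 34 and 17 reads in the RelA libraries against 34 and 46 in the RelB libraries, so that RelA replicate 1 and RelB replicate 1 had the same number. Its κB match, GGGAGTTTCC, has the same 10 letters as one of the 2 at the Ccl5 start site. It stands at chr8:97331521-97331530. The printed stretch leaves out the reported position of the strongest window in both RelB libraries and in RelA replicate 1.

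Near Ccl22 (ENSMUSG00000031779.3, plus strand, chr8:97269490-97275599), both upstream sites of all 4 libraries had Pllp as their nearest coding gene. At chr8:97238702-97238866, 30706 bp upstream, the log2 fold was 3.61 and 3.82 in the RelA libraries against 4.18 and 3.86 in the RelB libraries, and the reads were 73, 54, 75 and 90. At chr8:97229602-97230193, 39593 bp upstream, it was 2.83 and 2.63 in the RelA libraries against 2.60 and 2.55 in the RelB libraries, the lowest mean among the 14 sites. The RelB libraries were slightly above RelA at the first and slightly below at the second.
Between these, chr8:97234312-97234739 had 1.87 in RelA replicate 1 and 3.46 and 1.97 in RelB. It rested on 12, 15 and 15 ChIP reads against 6, 6 and 8 input reads in those libraries. The FDRs were 0.0546, 0.0513 and 0.0253, where the lists hold peaks with an FDR under 0.1. Also between them, chr8:97234885-97235355 had 2.68 in RelA replicate 1 and 2.91 and 2.67 in RelB. One chemokine site was called in both RelB libraries and in neither RelA library, chr8:97313372-97313903, 17728 bp downstream of the Cx3cl1 start site, at 2.60 and 2.45 with 15 and 20 reads. No chemokine site was called in both RelA libraries and in neither RelB library.

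**Figure D3:**
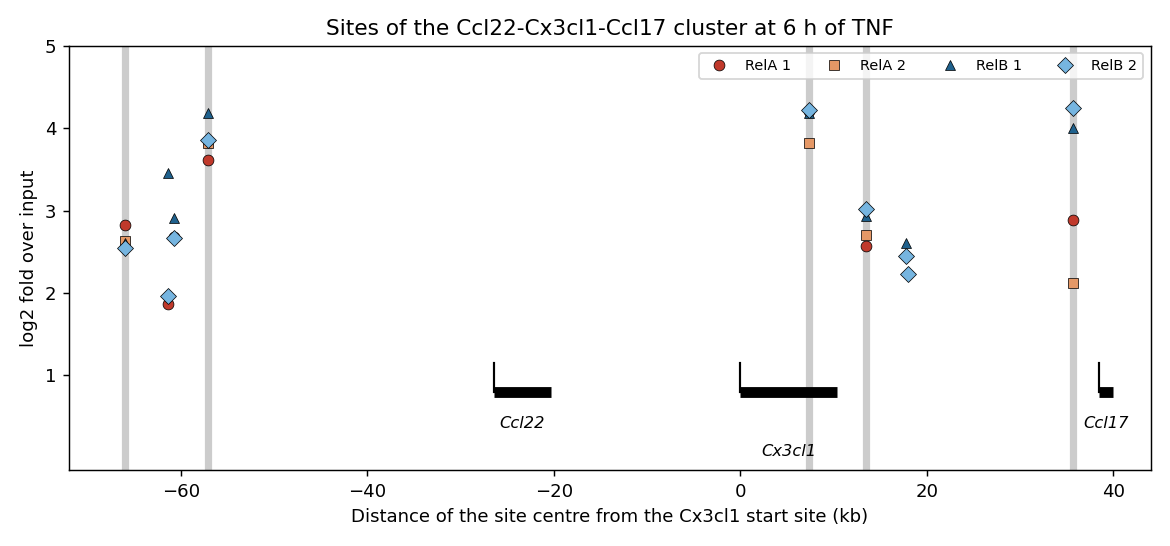
Sites near Ccl22, Cx3cl1 and Ccl17 at 6 h, by the distance of the site centre from the Cx3cl1 start site in kb (x axis) and the log2 fold over input (y axis), with 1 symbol per library. Grey bars mark the 5 sites of all 4 libraries. At the rightmost, upstream of Ccl17, the RelB symbols at 4.0 and 4.25 lie above the RelA symbols at 2.89 and 2.12.

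RelA and RelB strength was then compared over the 1860 sites called in all 4 libraries at 6 h. A site with no peak in a library has no value there and could not be tested. Sites missed by an antibody, such as the chemokine site called only in the RelB libraries, are therefore left out. Each library was centred on its median, and limma tested RelA minus RelB at every site with Benjamini-Hochberg adjustment over all of them. It called 11 of the 1860 sites, a background of 0.591%, and none of the 14 chemokine sites at an adjusted p under 0.05. At an unadjusted p under 0.05 it had 2 of the 14 chemokine sites and 313 of all sites. RelA was the higher at 7 of the 14 sites. The median absolute difference was 0.25 at the chemokine sites and 0.31 over all sites.
At the Ccl17 upstream site RelA minus RelB was -1.54 on the centred log2 scale, with a standard error of 0.31, a 95% interval from -2.22 to -0.86 and an adjusted p of 0.0502 (limma). Only 0.215% of all sites had a difference as far towards RelB. The size depends on the measure, since log2 reads of the fullest window gave -0.51 in place of -1.54, with an adjusted p of 0.218 (limma). Over the alternatives the adjusted p (limma) ran from 0.00233 to 0.469. Without RelA replicate 1 it was 0.00405, with the lone RelA library assumed to vary like the others, and without RelB replicate 1 or RelB replicate 2 it was 0.469 and 0.431.
At the Ccl2 proximal site RelA minus RelB was 1.07 with a standard error of 0.27, a 95% interval from 0.48 to 1.66 and an adjusted p of 0.0865 (limma). A difference as far towards RelA was found at 1.94% of all sites. Log2 reads of the fullest window gave 0.97 with an adjusted p of 0.00658, and the restriction to sites with an FDR under 0.01 in all 4 libraries gave 1.09 with 0.0310 (limma). Over all alternatives its adjusted p ran from 0.00658 to 0.469, and the highest came from leaving out 1 library.
The interval of each of the other 12 sites included 0. The widest of the other differences were 0.57 at the Ccl2 distal site, with an interval from -0.08 to 1.21, and -0.41 at the Ccl5 site 19991 bp upstream, with one from -1.01 to 0.18. At the Ccl5 start site the difference was -0.12, from -0.71 to 0.47, and in the Cx3cl1 intron -0.11, from -0.71 to 0.50. These intervals leave room for differences of either sign.

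**Figure D4:**
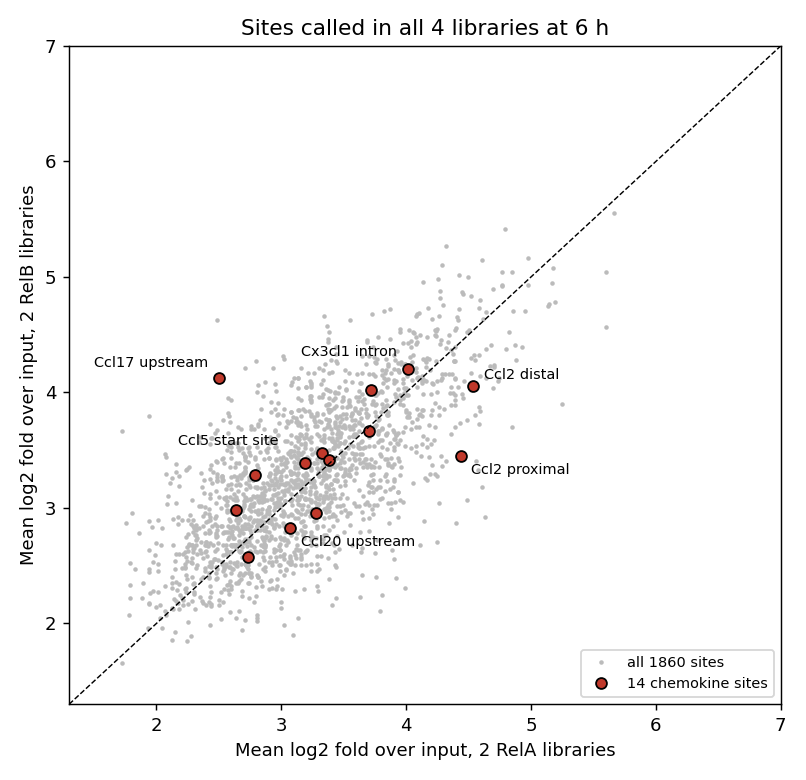
Mean log2 fold over input of the 2 RelA libraries (x axis) and the 2 RelB libraries (y axis) at the 1860 sites called in all 4 libraries at 6 h (grey), with the 14 chemokine sites in red and equal values on the dashed line. The Ccl17 upstream site lies above the cloud's middle, at 2.50 and 4.12, and the Ccl2 proximal site below it, at 4.44 and 3.45.

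**Figure D5:**
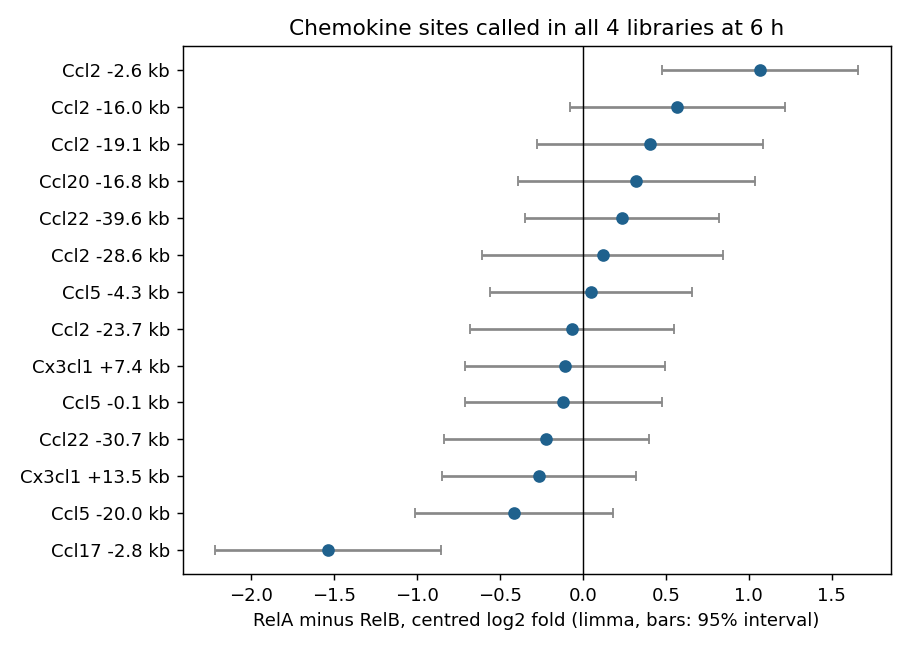
RelA minus RelB on the centred log2 scale at the 14 chemokine sites (points), with 95% intervals from limma (bars), each site named by its nearest chemokine start site and the distance to it in kb. The intervals of 2 sites, at Ccl2 and Ccl17, do not include 0, and no site passed the adjusted threshold. An interval without 0 is an unadjusted p under 0.05 (limma), which 313 of all 1860 sites had.

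The κB consensus was looked for on either strand, up to 100 bp from the centre of each site. It was found at 13 of the 14 chemokine sites of all 4 libraries (92.9%) and at 73.9% of all 1860 such sites. Over sites of any 6 h library the shares were 24 of 34 (70.6%) and 44.3% of 14779. Around the median position of the strongest window in place of the site centre, 7 of 14 chemokine sites had a match (50.0%), against 71.9% of all such sites, so the chemokine share depends on where the window is placed. The AP-1 motif TGANTCA was found at 1 of the 14 sites, that 23664 bp upstream of Ccl2, and at 16.5% of the 1860. This too moved with the window, to 6 of 14 against 29.7% within 250 bp of the centre and 3 of 14 against 16.1% around the strongest window. The exception to the κB matches was the Ccl20 upstream site, printed last above. The Ccl20 site downstream of the gene, called in 3 libraries, likewise had none within 100 bp of its centre, and neither had the Ccl5 site at 13623 bp upstream. The Ccl20 site 30504 bp upstream, also called in 3 libraries, had none either. A match describes the letters in the window and does not show which dimer was bound there.

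Other genes of the chemokine system were described from a list of 15 further ligands and 17 receptors. Of the ligands, 14 were found in the annotation, 7 had a 6 h peak within 50 kb (50.0%, where all genes had 39.6%) and 4 a site of all 4 libraries (28.6%, where all genes had 8.89%). These 4 genes add a single locus to those above. For Ccl6 and Ccl9 these were the Ccl5 sites. For Ccl3 and Ccl4, inflammatory chemokines, it was a site of their own, chr11:83460083-83460591, where the log2 fold reached 3.81 and 3.70 in the RelA libraries against 3.81 and 2.98 in the RelB libraries, 2520 bp downstream of the Ccl3 start site. All 17 receptors were found, 8 had a 6 h peak (47.1%) and 1 a site of all 4 libraries (5.88%), shares near those of all genes. That 1 was Ccr4, the receptor of Ccl17 and Ccl22, with a site at -45044 bp from its start site, on the upstream side, at 2.56 and 1.89 in the RelA libraries against 2.13 and 2.90 in the RelB libraries. None of these genes had a peak at 0 h.

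Protein-coding genes with numbers of peaks most like those of Ccl2 in the 8 libraries, more than 1 Mb from it, were found by Euclidean distance. Ccl2 had 6 and 7 RelA peaks and 7 and 7 RelB peaks at 6 h and none at 0 h. The nearest was Il34, which encodes a ligand of the Csf1 receptor, at a distance of 1.73, with 6 and 7 RelA peaks and 6 and 6 RelB peaks at 6 h and 1 in RelB replicate 2 at 0 h. Gm11006 and Gm17334, neighbours on chromosome 11, followed at a distance of 2 with 7 and 6 RelA peaks and 6 and 8 RelB peaks each. Likeness here rests on counts of peaks alone.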

How the data were processed

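Per the labels and the study's methods, the authors trimmed reads with cutadapt, aligned them to mm9 with Bowtie and called peaks in each library with cisGenome against input chromatin. For each peak the deposited lists give a false discovery rate, a q-value of the call. They also give the deposited log2 fold over scaled input of the strongest window, and deposited counts of ChIP and input reads in the peak and in its fullest window, not normalized. Total reads are unknown, so no detection limit was set. The input library itself was not analysed here, and no sample was left out among the 8 ChIP libraries.

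Peaks overlapping by at least 1 bp in any library were merged into sites, taking the highest fold, the lowest false discovery rate and summed reads per library. Start sites came from the first mouse GENCODE release on mm9, 1 per gene. limma compared strength (lmFit, then eBayes; Benjamini-Hochberg adjusted p under 0.05) without a replicate block. Sites described were all those of 4 libraries and up to 3 others per locus by fold, plus 1 further Ccl20 site chosen after its values were seen. The members, lists and tests were chosen with earlier results of these data known. The steps were tested on simulated data. Alternatives covered thresholds, distances, merging, normalization, motif windows and leaving out each library. Tools were limma 3.58.1 in R 4.3.3 and, in Python 3.11.15, pysam 0.24.0, pandas 2.3.3 and numpy 2.4.6, with figures from matplotlib 3.10.9.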

Additional observations from a re-analysis of the deposited data

How the results depend on the processing

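The number of chemokine sites at 6 h was 34, and 21 with a limit of 20 kb. With that limit 10 sites in place of 14 were called in every library, and 6 genes in place of 8 had such a site. Leaving out a 6 h library gave 31 to 36 sites, 14 to 17 of them in every library kept, and the number of genes with such a site was 8 each time. No alternative gave a 0 h peak near a chemokine gene. limma called 11 of all sites and 0 chemokine sites. Log2 reads of the fullest window gave 131 and 1, sites with an FDR under 0.01 in all 4 libraries 30 and 1, and leaving out 1 library 0 to 40 and 0 to 1. It called no site of any kind without RelB replicate 1 or without RelB replicate 2, and 40 and 39 without RelA replicate 1 and RelA replicate 2. The cause was not tested. A replicate block raised the calls to 85 of all sites and 2 chemokine sites by limma, the Ccl17 upstream site (adjusted p = 0.00233) and the Ccl2 proximal site (adjusted p = 0.0351). The numbers gave no sign of pairing, since the deviations of same-numbered libraries had a correlation of -0.00256. The Ccl17 site kept its sign in the 8 alternatives that could be fitted, from -1.90 to -0.51, and the Ccl2 proximal site in 9, from 0.97 to 1.17. The restriction to an FDR under 0.01 kept 12 of the 14 chemokine sites. It dropped the Ccl17 upstream site and the Ccl5 start site, whose FDR in RelA replicate 2 was 0.0194 and 0.0484. The κB share moved from 13 to 7 sites with windows centred on the strongest window, an alternative chosen after seeing the data. Total reads are unknown, so what depth limits was not tested.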
